A study of Mus musculus with 12 samples.

Results

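Cyclins and cyclin-dependent kinase (CDK) inhibitors that act in the G1 phase of the cell cycle were followed by RNA-seq in mouse mesangial cells (MMC), the contractile support cells of the kidney glomerulus. The genes were chosen by symbol and comprise 10 of the 25230 genes counted: the D-type cyclins Ccnd1, Ccnd2 and Ccnd3, the E-type cyclins Ccne1 and Ccne2, the CIP/KIP inhibitors Cdkn1a (p21), Cdkn1b (p27) and Cdkn1c (p57), and the INK4 inhibitors Cdkn2b (p15) and Cdkn2c (p18). MMC came from wild-type (WT) mice or from lncMGC-KO5 mice (KO) and were serum-depleted controls (SD) or had received 10 ng/ml of TGF-β, both labelled as 24 h. Each of WT-SD, KO-SD, WT-TGF and KO-TGF had 3 libraries. lncMGC is a long non-coding RNA that hosts a cluster of microRNAs, and KO5 carries a short Cas9-made deletion close to the start of its transcript, on a C57BL/6 background. The KO cells are from 1 mutant line, MMC are grown from pooled glomeruli and are used as passaged cultures, and no source states whether the libraries of a group came from separate cultures or animals. The p-values therefore measure only the spread between these libraries, which may be technical, and the genotype cannot be told apart from the cultures that carry it.

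Cells pass from G1 into S phase when CDK4 and CDK6, bound to D-type cyclins, and then CDK2, bound to E-type cyclins, phosphorylate the retinoblastoma protein and free the E2F transcription factors. INK4 proteins bind CDK4 and CDK6 and keep D-type cyclins off them, whereas CIP/KIP proteins bind cyclin-CDK complexes, mostly those of CDK2. E-type cyclin genes are themselves E2F targets, and Cdkn1a is a classical target of p53. TGF-β is known to arrest many epithelial cells in G1 with induction of Cdkn2b and Cdkn1a and loss of Myc, while cultured mesangial cells answer it with growth arrest, hypertrophy and matrix production. RNA levels say nothing of the amount or activity of these proteins, several of which are controlled by degradation.

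The libraries had between 19898050 and 22827706 counts on genes. Levels are given as CPM, the usual depth-scaled count unit, here with library sizes scaled by TMM, the trimmed mean of M values. The floor of 3 counts lay between 0.131 and 0.151 CPM by library size alone, without TMM. Among the 7 TGF-β target genes used as a check, 6 were higher with TGF-β in WT and 5 in KO, against 36.0% and 34.9% of all genes tested. Id1 was lower with TGF-β in both genotypes (log2 fold change -0.68 in WT and -0.47 in KO). Tgfbi was higher in WT (2.42) and lower in KO (-0.34). lncMGC itself has no row in the counts. Mirg, an annotated transcript at its end, had 2.33 ± 0.31 CPM in WT-SD, 3.59 ± 0.15 in WT-TGF, 3.67 ± 0.55 in KO-SD and 4.27 ± 0.55 in KO-TGF (SD, n = 3), so it was no lower in KO. Its level thus does not bear out the genotype labels, and the reason was not tested. The paper reports that Sanger sequencing showed the deletion in the KO mice. No other value here checks the genotype, and KO means the libraries labelled so. The mesangial markers Pdgfrb (288 to 383.6 CPM), Acta2 (1567 to 6288) and Tagln (714.2 to 3915, all group means) were abundant, while Thy1 was at or near 0 in every group, and the 10 mesangial markers summed to 2529 to 2673 CPM in WT-SD, 5663 to 5830 in WT-TGF, 4869 to 5035 in KO-SD and 10710 to 10800 in KO-TGF. That sum is carried mostly by Acta2 and Tagln, and the number of the 10 over 1 CPM was 9, 8, 7 and 5 in that order, with Des at 7.67, 5.62, 0.529 and 0.248 CPM, Pdgfra at 3.54, 0.646, 1.97 and 0.212, and Itga8 at 2.89, 1.61, 3.05 and 0.638 (group means). Nephrin of podocytes (Nphs1) and Umod, Aqp2 and Slc34a1 of tubules were at or near 0. Markers of macrophages differed between the groups: the summed level of the 7 was 35.4 to 39.3 CPM in WT-SD, 19.0 to 22.6 in WT-TGF, 8.13 to 9.77 in KO-SD and 2.30 to 2.68 in KO-TGF, and Adgre1 (F4/80) was at 0 in KO. The 6 podocyte genes summed to 455.5 to 473.9 CPM in WT and 204.9 to 226.8 in KO, mostly from Synpo, Wt1 and Podxl. The 6 endothelial genes summed to 32.9 to 33.3 CPM in WT-SD, 20.1 to 22.5 in WT-TGF, 17.2 to 18.4 in KO-SD and 9.25 to 10.9 in KO-TGF, and the 7 tubule genes to 44.8 to 47.3, 16.3 to 17.8, 14.1 to 14.9 and 8.72 to 10.2. Among the endothelial genes only Ehd3 had a group mean over 1 CPM, and among the tubule genes only Lrp2 and Cubn did. Both sums thus follow those genes and not the lists as a whole. Lrp2 was lower with TGF-β in both genotypes, whereas Cubn was higher. The part of these other cell types in the results on G1 genes was not tested. In bulk RNA fewer cells of a type and less RNA per cell cannot be told apart.

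The 250 bases upstream of an annotated start were read from RefSeq (GRCm38.p6, the assembly of mm10) for the 6 of 10 genes with an entry, which have 9 starts in all. They are shown for 1 gene that rose with TGF-β and for 2 that fell with it, each 5′ to 3′ on the strand of the gene and ending at the base before the start. Capitals mark CAGAC, the letters of a SMAD box, in Cdkn2b (chr4:89311033-89311282, minus strand), and GGGCGG, the letters of a GC box, in Ccne1 (chr7:38107491-38107740, minus strand) and Cdkn2c (chr4:109666757-109667006, minus strand). Both strands were searched, and a match on the other strand appears as its reverse complement.
Cdkn2b: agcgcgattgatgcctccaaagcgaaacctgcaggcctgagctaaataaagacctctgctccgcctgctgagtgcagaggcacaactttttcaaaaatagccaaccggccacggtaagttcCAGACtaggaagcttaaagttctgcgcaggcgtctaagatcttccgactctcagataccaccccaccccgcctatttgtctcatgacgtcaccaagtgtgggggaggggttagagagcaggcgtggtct
Ccne1: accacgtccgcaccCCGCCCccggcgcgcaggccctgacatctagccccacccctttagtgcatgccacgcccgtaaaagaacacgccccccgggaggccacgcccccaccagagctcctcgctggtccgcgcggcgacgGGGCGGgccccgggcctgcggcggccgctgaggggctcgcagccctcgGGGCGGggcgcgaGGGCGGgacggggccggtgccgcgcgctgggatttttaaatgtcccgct
Cdkn2c: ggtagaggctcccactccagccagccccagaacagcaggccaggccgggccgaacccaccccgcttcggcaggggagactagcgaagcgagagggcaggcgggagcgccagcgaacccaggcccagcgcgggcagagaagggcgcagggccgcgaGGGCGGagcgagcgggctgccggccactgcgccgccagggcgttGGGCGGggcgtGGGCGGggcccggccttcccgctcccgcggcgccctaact
CAGAC stood 129 bases before the start of Cdkn2b, and 42.2% of the 32851 RefSeq windows of this length hold it. GGGCGG matched 4 times in Ccne1 and 3 times in Cdkn2c and is held by 32.7% of windows. The matches did not separate genes that rose from genes that fell. CAGAC was also in both windows of Cdkn1a, which rose on the TMM scale. Among genes that fell, it was in Ccnd3 (2 matches) and in the window of the other start of Cdkn2c (188 bases before it). GGGCGG was also in Cdkn1a (2 matches), Ccnd3 and Cdkn1b. The E2F letters TTTCCCGC, TTTCGCGC, TTTGCCGC or TTTGGCGC, found in 1.86% of all windows, were in none of the 9 windows of these genes. Such matches describe the letters and are not evidence of binding.

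TGF-β lowered the RNA of most of these cyclins and of Cdkn2c and raised Cdkn2b in both genotypes, with larger changes in KO for Ccnd1, Ccnd3, Ccne1, Ccne2, Cdkn2b and Cdkn2c, and serum-depleted KO cells had more E-type cyclin and Cdkn2c RNA and less Cdkn1a RNA than WT. Of the 10 genes, 9 passed the filter of the test (RPKM >1 in at least 1 library, by library size without TMM, 11530 genes in all), and Cdkn1c, at no more than 0.684 RPKM on that scale, was taken from the same model run on all 18565 counted genes. Ccne1 was over this limit in 11 libraries and Ccne2 in 9 (12 and 11 on the TMM scale used below). In WT, TGF-β raised 2 of the 9 and lowered 6 (FDR <5% by the quasi-likelihood test of edgeR with Benjamini-Hochberg adjustment), against 36.0% of all genes tested that were called higher and 36.4% called lower. In KO it raised 2 and lowered 7, against 34.9% and 39.1% of all genes. KO against WT gave 4 higher and 3 lower in SD, with 30.9% and 25.2% of all genes called, and 2 higher and 3 lower in TGF-β, with 27.3% and 27.8%. The response to TGF-β differed between the genotypes (the interaction, KO minus WT) for 7 of the 9, positive for 2 and negative for 5, whereas 8.67% of all genes were positive and 16.6% negative. Calls were thus common among all genes, and the counts are to be read against these shares.

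The scaling bears on small differences. When libraries were scaled by size alone, without TMM, the median log2 fold change of all genes went from -0.005 to -0.16 for TGF-β in WT, from -0.025 to -0.23 for TGF-β in KO, from 0.020 to -0.056 for KO against WT in SD, from -0.004 to -0.13 in TGF-β, and from -0.031 to -0.077 for the interaction. The shares called higher and lower then became 22.9% and 52.5%, 19.9% and 58.2%, 21.2% and 36.4%, 14.2% and 46.9%, and 5.95% and 23.0% in the same order. All values below are on the TMM scale unless another is named. For the cyclins and CDK inhibitors studied, a log2 fold change that flips sign with library size alone is named where it is given. For single genes outside this set and for the gene lists, such flips were not tested. The direction of their small differences may thus depend on the scaling.

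**Figure D1:**
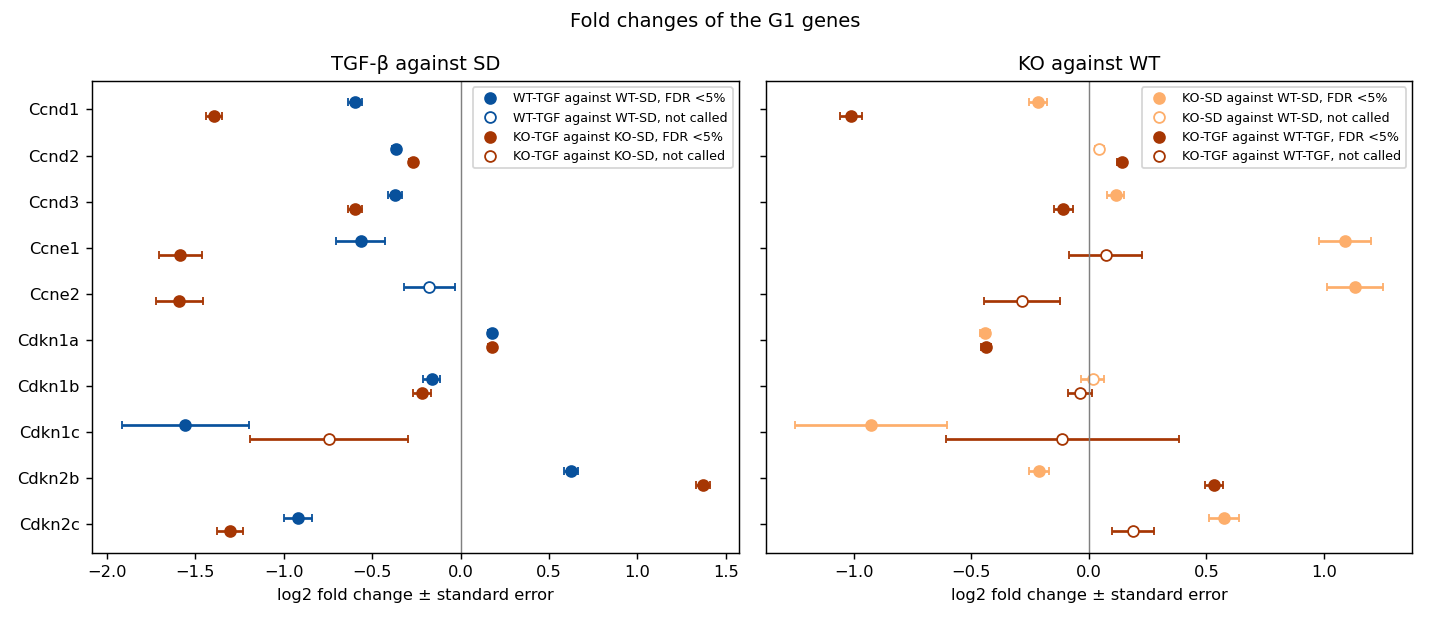
Log2 fold changes (x axis) with standard errors of the 10 genes (y axis) for TGF-β against SD in each genotype (left) and KO against WT in each condition (right); filled points passed FDR <5%, open points did not, and Cdkn1c comes from the model without the filter. Cdkn2b lies at 0.63 in WT and 1.37 in KO under TGF-β, the D-type cyclins lie below 0 in both, Ccne1 (1.09) and Ccne2 (1.13) lie farthest right for KO against WT in SD, and the points of Cdkn1a at 0.18 flip sign in KO (-0.024) with library size alone.

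Ccnd1, the cyclin whose transcription mitogens induce most directly, was lower with TGF-β in both genotypes and lowest in KO-TGF. It lies at chr7:144929931-144939831 on the minus strand. Its level was 110.1, 113.8 and 108.5 CPM in the WT-SD libraries and 74.0, 69.7 and 76.4 in WT-TGF. KO-SD had 95.1, 98.1 and 93.3 CPM, and KO-TGF 36.5, 38.9 and 33.7. No group overlapped another, with the order WT-SD, KO-SD, WT-TGF, KO-TGF from high to low. TGF-β lowered Ccnd1 1.51-fold in WT (log2 fold change -0.60 ± 0.040, standard error, adjusted p = 3.39e-14 by edgeR) and 2.63-fold in KO (-1.39 ± 0.046, adjusted p = 3.47e-22). The difference of these responses was -0.80 ± 0.062 (adjusted p = 1.25e-11). KO was 1.16-fold below WT in SD (-0.22 ± 0.039, adjusted p = 2.37e-05) and 2.02-fold below it in TGF-β (-1.01 ± 0.047, adjusted p = 8.15e-18).

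Ccnd2 was the most abundant cyclin of the 10 genes and changed least among the D-type cyclins across the 4 groups. It lies at chr6:127125162-127152188 on the minus strand. WT-SD libraries had 1697, 1724 and 1690 CPM and WT-TGF libraries 1314, 1318 and 1335. KO-SD had 1798, 1743 and 1734 CPM and KO-TGF 1440, 1458 and 1472. Each SD library was above each TGF-β library. TGF-β lowered it 1.29-fold in WT (-0.37 ± 0.021, adjusted p = 3.68e-16) and 1.21-fold in KO (-0.27 ± 0.021, adjusted p = 4.10e-13). The response in KO was smaller by 0.094 ± 0.029 on the log2 scale (adjusted p = 0.0156), a call that was lost with library size alone (0.048, adjusted p = 0.209), with the likelihood ratio test (adjusted p = 0.0564) and without the filter on low genes (adjusted p = 0.0504). KO-TGF was 1.10-fold above WT-TGF (0.14 ± 0.021, adjusted p = 9.84e-07; 0.018 and adjusted p = 0.452 with library size alone). In SD the difference of KO from WT was 0.045 ± 0.021 (adjusted p = 0.0604), called without KO-SD replicate 3 (0.055, adjusted p = 0.0401), without the filter (0.074, adjusted p = 0.00139) and with the filter at CPM >1 (0.058, adjusted p = 0.0200), and -0.030 with library size alone.

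Ccnd3, the D-type cyclin most tied to differentiated cells, also fell with TGF-β in both genotypes. It spans chr17:47505051-47599689 on the plus strand. Its libraries had 66.0, 68.4 and 67.3 CPM in WT-SD, 50.4, 53.5 and 52.0 in WT-TGF, 70.7, 73.9 and 73.8 in KO-SD, and 48.6, 46.6 and 49.4 in KO-TGF. The SD and TGF-β libraries stood apart, and those of KO and WT lay close together in each condition but did not overlap. The decrease was 1.29-fold in WT (-0.37 ± 0.038, adjusted p = 5.10e-10) and 1.51-fold in KO (-0.60 ± 0.039, adjusted p = 1.54e-14), and the difference between them was -0.22 ± 0.055 (adjusted p = 0.00250). KO exceeded WT by 0.11 ± 0.037 in serum-depleted cells (adjusted p = 0.00867) and was below it under TGF-β (-0.11 ± 0.041, adjusted p = 0.0259). The call in SD was lost with library size alone (0.039, adjusted p = 0.387) and with DESeq2 (adjusted p = 0.0549). The call in TGF-β was lost with DESeq2 (adjusted p = 0.123), without the filter (adjusted p = 0.0830) and on leaving out WT-TGF replicate 2 (adjusted p = 0.122) or 3 (0.0533) or KO-TGF replicate 1 (0.0918), 2 (0.231) or 3 (0.0529).

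Ccne1, a cyclin that activates CDK2 at the entry to S phase, was highest in serum-depleted KO cells. The gene lies at chr7:38097984-38107490, just downstream of the window printed above. WT-SD libraries had 4.55, 5.51 and 5.597 CPM (100 to 127 counts) and WT-TGF libraries 3.22, 3.57 and 3.80. KO-SD had 10.1, 11.5 and 11.8 CPM, and KO-TGF 4.12, 2.89 and 4.10. All KO-SD libraries were above all others, and the KO-TGF libraries overlapped those of WT-TGF. KO-SD exceeded WT-SD 2.13-fold (1.09 ± 0.11, adjusted p = 6.07e-10), while in TGF-β the difference was 0.072 ± 0.15 (adjusted p = 0.717; -0.050 with library size alone). TGF-β lowered Ccne1 1.48-fold in WT (-0.57 ± 0.14, adjusted p = 0.000572) and 3.0-fold in KO (-1.58 ± 0.12, adjusted p = 7.21e-13), with a difference of -1.02 ± 0.19 (adjusted p = 0.000115).

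Ccne2, the second E-type cyclin, was also highest in KO-SD and had no called response in WT. It is on the plus strand at chr4:11190433-11204779. Its libraries had 4.64, 5.03 and 5.10 CPM in WT-SD and 4.49, 3.83 and 4.79 in WT-TGF, and those groups overlapped. KO-SD had 13.1, 10.4 and 8.90 CPM, the widest spread of the 4 groups, and KO-TGF 3.54, 3.32 and 3.89. Every KO-SD library was again above every other library. KO-SD was 2.19-fold above WT-SD (1.13 ± 0.12, adjusted p = 1.98e-09), and TGF-β lowered Ccne2 3.01-fold in KO (-1.59 ± 0.13, adjusted p = 5.35e-12). In WT the change was -0.18 ± 0.14 (adjusted p = 0.277; -0.33 and adjusted p = 0.0355 with library size alone), and the responses differed by -1.41 ± 0.20 (adjusted p = 2.06e-06). Under TGF-β the difference of KO from WT was -0.28 ± 0.16 (adjusted p = 0.139; -0.40 and adjusted p = 0.0285 with library size alone).

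**Figure D2:**
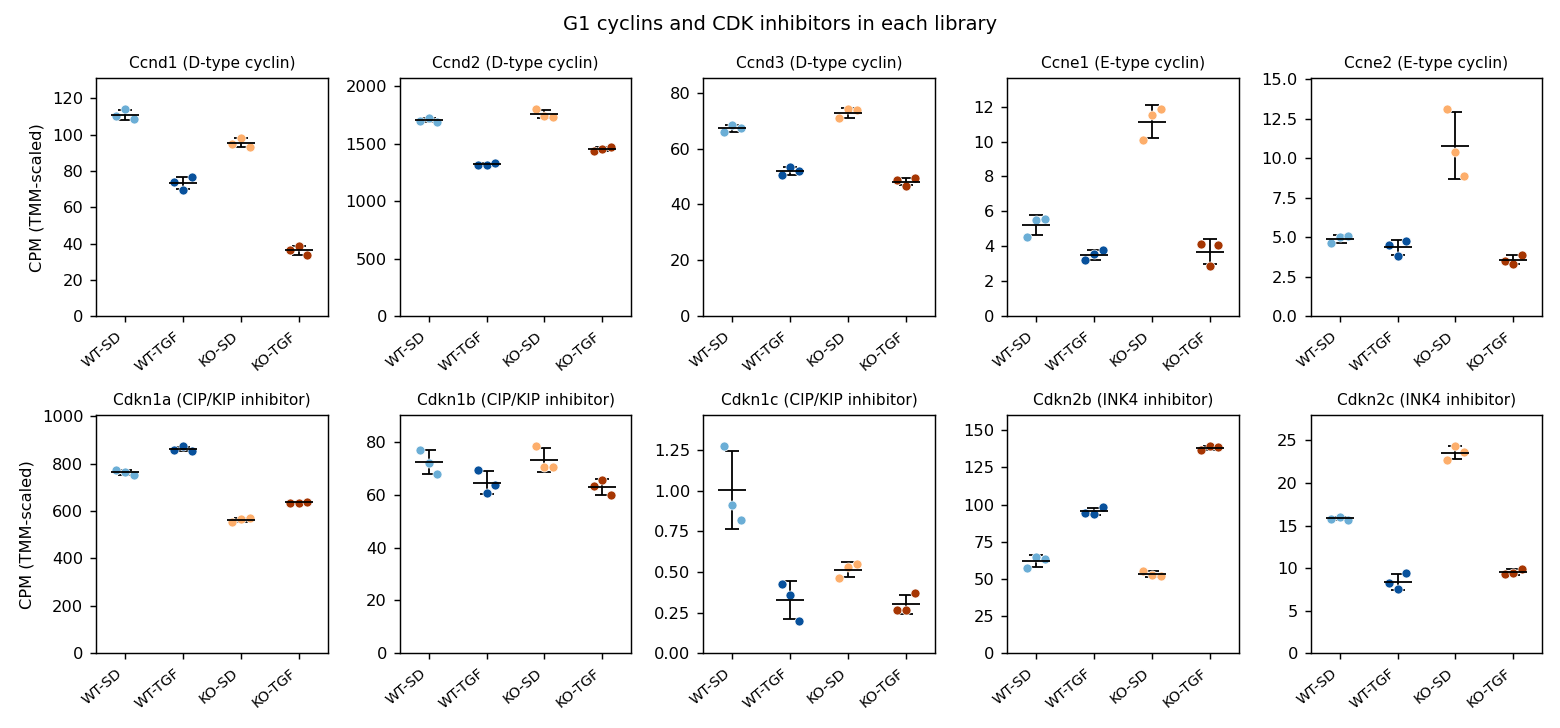
CPM (y axis, TMM-scaled, from 0) of each of the 10 genes in the 12 libraries by group (x axis); points are libraries and bars the mean ± SD of 3. The 3 KO-SD libraries of Ccne1 (10.1 to 11.8 CPM) and Ccne2 (8.90 to 13.1) are above all others, Ccnd1 is lowest and Cdkn2b highest in KO-TGF, and Cdkn1a is lower in KO than in WT in each condition.

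Cdkn1a, encoding p21, an inhibitor of CDK2 and the main CDK inhibitor downstream of p53, was lower in KO in both conditions. It lies at chr17:29090979-29100722 on the plus strand and has 2 RefSeq starts with a window each, both with 1 CAGAC. WT-SD libraries had 771.9, 767 and 751 CPM and WT-TGF libraries 857.5, 874.1 and 855.3. KO-SD had 552.5, 564.5 and 568.8 CPM and KO-TGF 634.2, 635.6 and 639.9. The KO and WT libraries did not overlap. KO was 1.36-fold below WT in SD (-0.44 ± 0.022, adjusted p = 4.36e-17) and 1.35-fold below in TGF-β (-0.44 ± 0.022, adjusted p = 5.19e-17). TGF-β raised Cdkn1a 1.13-fold in WT (0.18 ± 0.022, adjusted p = 2.17e-08) and 1.13-fold in KO (0.18 ± 0.022, adjusted p = 1.76e-08), but with library size alone the change was 0.017 in WT (adjusted p = 0.485) and -0.024 in KO (adjusted p = 0.326). The responses differed by 0.0041 ± 0.031 (adjusted p = 0.951), a value whose sign changed with library size alone (-0.042).

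Cdkn1b, encoding p27, which holds quiescent cells out of the cycle, moved little at the RNA level. It is at chr6:134920401-134925525, plus strand. The WT-SD libraries had 77.1, 72.1 and 68.0 CPM, WT-TGF 69.3, 60.8 and 63.9, KO-SD 78.4, 70.6 and 70.6, and KO-TGF 63.2, 65.8 and 60.01. SD and TGF-β libraries overlapped in WT and stood apart in KO. TGF-β lowered it 1.12-fold in WT (-0.16 ± 0.050, adjusted p = 0.00435), a call lost without WT-SD replicate 1 (-0.12, adjusted p = 0.0551), and 1.16-fold in KO (-0.22 ± 0.051, adjusted p = 0.000366). The genotypes differed by 0.016 ± 0.049 in SD (adjusted p = 0.800; -0.060 with library size alone) and by -0.037 ± 0.052 in TGF-β (adjusted p = 0.570; -0.16 and adjusted p = 0.00876 with library size alone). The interaction was -0.053 ± 0.072 (adjusted p = 0.655).

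Cdkn1c, encoding p57, an imprinted gene best known from development and mature podocytes, was barely counted. At chr7:143458339-143461059 on the minus strand, it had 28, 21 and 18 counts in WT-SD, 9, 8 and 4 in WT-TGF, 10, 11 and 12 in KO-SD, and 5, 5 and 7 in KO-TGF, all above the floor of 3. The WT-SD libraries were above those of the other 3 groups. In the model without the filter, TGF-β lowered it in WT (1.001 ± 0.24 CPM in WT-SD against 0.327 ± 0.12 in WT-TGF, SD, n = 3; -1.56 ± 0.36, standard error, adjusted p = 4.38e-05). KO-SD was below WT-SD (-0.93 ± 0.32, adjusted p = 0.0120), but not without WT-SD replicate 1 (-0.72, adjusted p = 0.128) or with DESeq2 (adjusted p = 0.0922). The TGF-β response in KO was -0.74 ± 0.45 (adjusted p = 0.162), KO against WT in TGF-β -0.11 ± 0.49 (adjusted p = 0.939) and the interaction 0.81 ± 0.60 (adjusted p = 0.457).

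Cdkn2b, encoding p15, an INK4 inhibitor of CDK4 and CDK6 and a textbook TGF-β target, rose with TGF-β in both genotypes and reached its highest level in KO-TGF. It lies at chr4:89306289-89311032 on the minus strand, and its upstream window is the one printed with the CAGAC. WT-SD libraries had 57.4, 64.7 and 63.5 CPM and WT-TGF libraries 94.2, 94.0 and 98.4. KO-SD had 55.6, 52.6 and 52.2 CPM and KO-TGF 136.7, 139.3 and 138.5. No group overlapped another, with KO-SD lowest. TGF-β raised Cdkn2b 1.54-fold in WT (0.63 ± 0.040, adjusted p = 8.27e-15) and 2.58-fold in KO (1.37 ± 0.040, adjusted p = 1.52e-23). The response in KO was larger by 0.74 ± 0.057 (adjusted p = 9.86e-12). KO was 1.16-fold below WT in SD (-0.21 ± 0.043, adjusted p = 1.00e-04) and 1.45-fold above it in TGF-β (0.53 ± 0.038, adjusted p = 2.03e-13).

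Cdkn2c, encoding p18, an INK4 inhibitor that is itself expressed in cycling cells, went the other way from Cdkn2b. It lies at chr4:109660876-109666756 on the minus strand, next to the window with 3 GGGCGG. Its libraries had 15.8, 16 and 15.7 CPM in WT-SD, 8.23, 7.53 and 9.44 in WT-TGF, 22.7, 24.3 and 23.6 in KO-SD, and 9.27, 9.41 and 9.93 in KO-TGF. SD and TGF-β libraries stood apart in both genotypes, KO-SD was above WT-SD in every library, and WT-TGF and KO-TGF overlapped. TGF-β lowered Cdkn2c 1.89-fold in WT (-0.92 ± 0.078, adjusted p = 7.27e-12) and 2.47-fold in KO (-1.30 ± 0.073, adjusted p = 2.87e-16). KO-SD was 1.49-fold above WT-SD (0.57 ± 0.064, adjusted p = 5.30e-09). In TGF-β the difference was 0.19 ± 0.089 (adjusted p = 0.0751), called without WT-TGF replicate 3 (0.28, adjusted p = 0.0154). The responses differed by -0.39 ± 0.11 (adjusted p = 0.00887), a call lost without WT-TGF replicate 3 (-0.30, adjusted p = 0.0582) and with DESeq2 (adjusted p = 0.05).

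Levels of different genes were compared as RPKM, which is CPM divided by the exon length in kilobases. In WT-SD the order from high to low was Cdkn1a (214.8 ± 3.1 RPKM, SD, n = 3), Ccnd2 (181.1 ± 1.9), Cdkn2b (44.5 ± 2.8), Ccnd1 (23.5 ± 0.57), Cdkn1b (15.9 ± 1.0), Ccnd3 (7.66 ± 0.14), Cdkn2c (5.89 ± 0.058), Ccne1 (1.96 ± 0.22), Ccne2 (1.41 ± 0.071) and Cdkn1c (0.491 ± 0.12). The libraries of neighbours in this order did not overlap. The order depends on the length used: with the longest transcript, chosen after seeing the data, Ccnd3 (17.4 RPKM in WT-SD) stood above Cdkn1b (15.9), and was far above Cdkn2c in KO-SD (18.9 against 9.54). In KO-SD Ccnd2 (186.9 ± 3.7 RPKM) stood above Cdkn1a (158.1 ± 2.4), the reverse of WT-SD. Cdkn2c (8.77 ± 0.30 RPKM) and Ccnd3 (8.30 ± 0.21) were close there, at 8.47 to 9.06 against 8.06 to 8.43. In KO-TGF Cdkn2b (99.4 ± 0.95 RPKM) stood far above Ccnd1 (7.72 ± 0.55), which was below Cdkn1b (13.8 ± 0.63) there. In WT-TGF the ranges of Ccnd1 (14.8 to 16.2 RPKM) and Cdkn1b (13.4 to 15.2) overlapped, as did those of Ccne1 and Ccne2 in WT-TGF (1.21 to 1.43 and 1.10 to 1.37) and KO-TGF (1.09 to 1.55 and 0.949 to 1.11). By the longest transcript Ccnd3 (12.5 RPKM) was above Ccnd1 (9.72) in KO-TGF.

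Ccnd2 made up most of the D-type cyclin RNA, and the share of Ccnd1 was smallest in KO-TGF. The 3 D-type cyclins summed to 212.3 ± 2.6 RPKM in WT-SD, 162.0 ± 1.8 in WT-TGF, 215.5 ± 3.5 in KO-SD and 168.0 ± 1.5 in KO-TGF (SD, n = 3). Ccnd1 was 10.96% to 11.23% of this sum in WT-SD, 9.20% to 9.89% in WT-TGF, 9.20% to 9.71% in KO-SD and 4.23% to 4.90% in KO-TGF. Its share in KO-TGF was thus below that of every other library, where an exact permutation test of 3 against 3 cannot go below p = 0.10. With the longest transcript in place of all exons as length, chosen after seeing the data, the share of Ccnd1 was 9.37%, 8.11%, 7.93% and 3.86% in the same order of groups. The share of Ccnd2 was 85.3%, 86.7%, 86.7% and 92.1%, and that of Ccnd3 3.61%, 3.65%, 3.85% and 3.27%. By the longest transcript the share of Ccnd3 was 5.51%, 5.56%, 5.86% and 4.95%, and that of Ccnd2 85.1%, 86.3%, 86.2% and 91.2%.

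Cdkn2b rose and Cdkn2c fell with TGF-β, so that their ratio shifted towards Cdkn2b. Cdkn2b and Cdkn2c summed to 50.4 ± 2.8 RPKM in WT-SD, 71.9 ± 2.1 in WT-TGF, 47.2 ± 1.1 in KO-SD and 102.9 ± 1.0 in KO-TGF. Cdkn2b was 88.3% ± 0.63 of this sum in WT-SD, 95.7% ± 0.37 in WT-TGF, 81.4% ± 0.99 in KO-SD and 96.6% ± 0.11 in KO-TGF. Cdkn2a was about as abundant as Cdkn2b in serum-depleted cells (43.7 RPKM in WT-SD, 45.5 in WT-TGF, 33.5 in KO-SD and 40 in KO-TGF), and with Cdkn2a and Cdkn2d in the sum, added after seeing the data, Cdkn2b was 44.3%, 56.3%, 43.8% and 67.6% of the INK4 RNA in the same order of groups. Cdkn1a was between 90.6% and 94.4% of the CIP/KIP RNA in each group mean. Ccne1 and Ccne2 were of like level, with Ccne1 at 51.5% to 58.1% of their sum, and that sum was 7.27 ± 0.27 RPKM in KO-SD against 3.37 ± 0.29 in WT-SD, 2.58 ± 0.20 in WT-TGF and 2.42 ± 0.33 in KO-TGF.

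**Figure D3:**
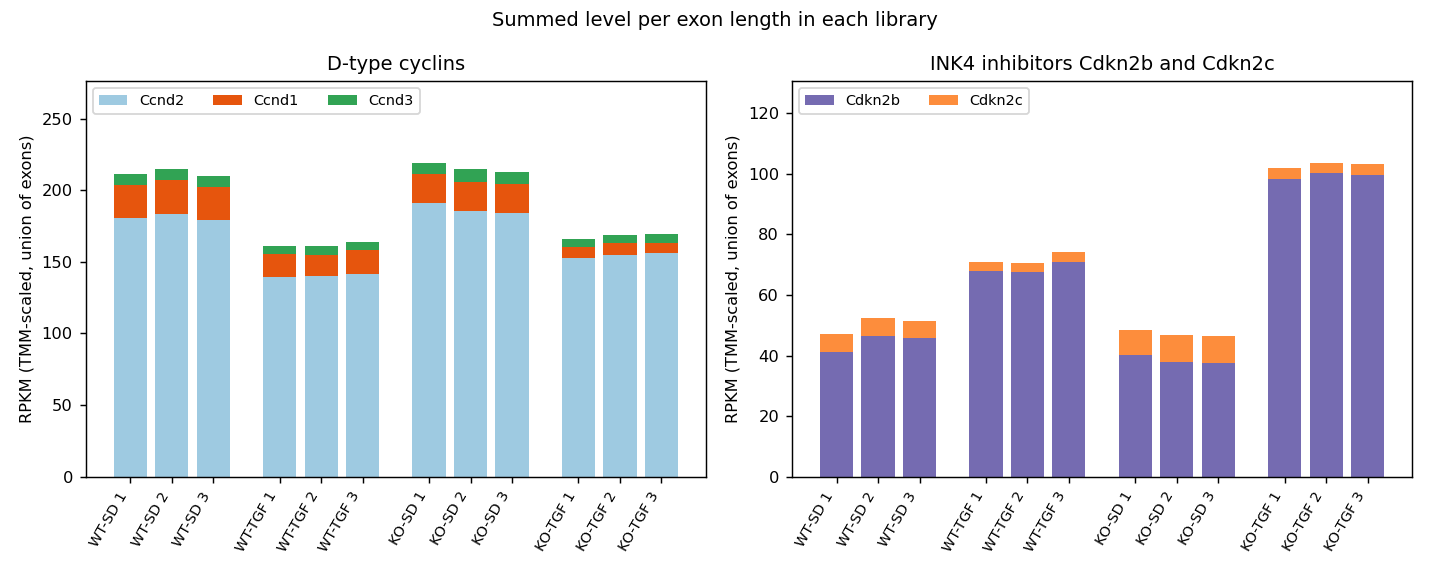
Summed RPKM (y axis, TMM-scaled, from 0) of the D-type cyclins (left) and of the INK4 inhibitors Cdkn2b and Cdkn2c (right) in each of the 12 libraries (x axis, group and replicate), stacked by gene. Ccnd2 fills most of each bar on the left, where the sum is lower in the TGF-β libraries, and Cdkn2b fills most of each bar on the right, where the sum is highest in KO-TGF (102.9 ± 1.0 RPKM).

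The kinases and further INK4 genes that work with these genes were named for their roles, after their values were seen. Cdk4, the partner of D-type cyclins, was higher in KO in SD (0.35 ± 0.029 log2, adjusted p = 7.15e-12; 178.5 CPM in WT-SD and 227.7 in KO-SD) and in TGF-β (0.21 ± 0.029, adjusted p = 4.62e-07). Cdk6, the other partner, fell with TGF-β in WT (-0.55 ± 0.025, adjusted p = 2.41e-18) and KO (-0.45 ± 0.025, adjusted p = 3.62e-16). Cdk2, the partner of E-type cyclins, was higher in KO-SD than in WT-SD (0.49 ± 0.055, adjusted p = 5.87e-09) and fell with TGF-β in KO (-0.40 ± 0.056, adjusted p = 2.19e-07), while its change in WT was 0.010 ± 0.058 (adjusted p = 0.882). Cdkn2a, the neighbour of Cdkn2b whose counts join the transcripts of p16 and ARF, was lower in KO than in WT in SD (-0.38 ± 0.049, adjusted p = 6.42e-08). Cdkn2d, encoding p19, fell with TGF-β in WT (-0.49 ± 0.10, adjusted p = 0.000122) and KO (-0.83 ± 0.11, adjusted p = 6.36e-08).

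Of the other G1 genes (kinases, retinoblastoma and E2F proteins, Myc genes and degradation factors), 31 were listed and 29 tested. The counts are over the 27 with a mean RPKM above 1 across all libraries. This choice was made after seeing the data and leaves out Cdkn3 and E2f7. TGF-β gave 12 higher and 8 lower in WT and 9 higher and 15 lower in KO. The median log2 fold changes were 0.093 and -0.14 against -0.005 and -0.025 for all genes tested. KO against WT gave 13 higher and 5 lower in SD (median 0.09, all genes 0.020). In TGF-β it gave 3 higher and 7 lower (median 0.027, all genes -0.004). The interaction was positive for 2 and negative for 13 (median -0.16, all genes -0.031). Of all genes tested, 36.0% were called higher and 36.4% lower with TGF-β in WT, and 34.9% and 39.1% in KO. For KO against WT these shares were 30.9% and 25.2% in SD and 27.3% and 27.8% in TGF-β, and for the interaction 8.67% and 16.6%. Myc, which TGF-β lowers in many epithelial cells, rose here in WT (1.57 ± 0.058, adjusted p = 9.02e-21) and, by less, in KO (1.07 ± 0.056, adjusted p = 3.78e-17), with an interaction of -0.50 ± 0.083 (adjusted p = 2.39e-05). Cdkn3, a phosphatase of CDKs expressed in cycling cells, fell most of the list in WT (-2.14 ± 0.39, adjusted p = 1.55e-05) and KO (-3.05 ± 0.26, adjusted p = 6.01e-12) and was higher in KO-SD than in WT-SD (1.87 ± 0.20, adjusted p = 3.11e-09), at group means from 0.188 CPM in WT-TGF, near the floor, to 3.13 in KO-SD. Cdkn3 and E2f7 passed the RPKM filter only through KO-SD, the group where they are highest, so their place in the test depends on that group. E2f7, an E2F repressor and E2F target, fell with TGF-β in WT (-0.93 ± 0.14, adjusted p = 5.19e-07) and KO (-2.28 ± 0.11, adjusted p = 3.00e-18). Rbl1 (p107) also fell in WT (-0.73 ± 0.074, adjusted p = 3.34e-10 by edgeR) and KO (-1.20 ± 0.074, adjusted p = 2.45e-15). E2f8, of the same kind as E2f7, was higher in KO in SD (1.83 ± 0.13, adjusted p = 2.16e-13) and, by less, in TGF-β (0.44 ± 0.14, adjusted p = 0.00854 by edgeR). Mycn was lower in KO in SD (-3.16 ± 0.17, adjusted p = 2.75e-16; 8.26 CPM in WT-SD and 0.922 in KO-SD) and in TGF-β (-2.61 ± 0.16, adjusted p = 4.65e-15). Under TGF-β, KO also had less Tfdp2, a dimer partner of E2Fs (-0.54 ± 0.052, adjusted p = 2.43e-10), and more Cks1b, which helps to mark p27 for degradation (0.52 ± 0.084, adjusted p = 4.69e-06). In SD, Tfdp2 was lower in KO as well (-0.11 ± 0.043, adjusted p = 0.0240 by edgeR), and Cks1b was higher (1.18 ± 0.083, adjusted p = 1.81e-13 by edgeR).

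Most of the mitosis and S-phase genes were lower with TGF-β, and in serum-depleted cells most were higher in KO. The filter let in 4 of 23 mitosis genes (Ccnb1, Ccnf, Cenpf and Ttk) only through KO-SD. The same held for 5 of 27 S-phase genes (Cdc6, Cdc45, Mcm10, Gins1 and Pola1). The counts here are therefore over list members with a mean RPKM above 1 across the 12 libraries. This choice was made after seeing the data. That mean includes KO-SD, so the choice lessens the dependence on this group but does not remove it. Cenpf and Cdc45 stay in, and Aurkb and Gins2 had a group mean RPKM above 1 in KO-SD only. The counts and medians below thus still rest in part on genes that enter through KO-SD. Of 20 such mitosis genes, 20 were lower with TGF-β in WT (median -1.52) and 20 in KO (-2.68), 20 were higher in KO in SD (1.945) and 14 under TGF-β (0.64), and the interaction was negative for 19. Of 22 such S-phase genes, TGF-β raised 2 and lowered 13 in WT (median -0.31) and raised 1 and lowered 21 in KO (-1.03). KO had 21 higher and 1 lower than WT in SD (median 0.91) and 8 higher and 2 lower under TGF-β (0.19), and the interaction was positive for 1 and negative for 19 (-0.75). The medians of all genes tested lay between -0.031 and 0.020 in these comparisons. Their shares called higher and lower were 36.0% and 36.4% for TGF-β in WT and 34.9% and 39.1% in KO. For KO against WT they were 30.9% and 25.2% in SD and 27.3% and 27.8% under TGF-β. For the interaction they were 8.67% positive and 16.6% negative. Ccna2, the cyclin of S and G2 phase, had 11.9 ± 1.4 CPM in WT-SD, 3.30 ± 0.29 in WT-TGF, 49.4 ± 1.6 in KO-SD and 6.32 ± 0.83 in KO-TGF (SD, n = 3). Its log2 fold change with TGF-β was -1.84 ± 0.11 in WT (adjusted p = 2.04e-15) and -2.96 ± 0.078 in KO (adjusted p = 9.99e-25). Mki67, the proliferation marker Ki-67, fell with TGF-β in WT (-2.07 ± 0.079, adjusted p = 1.60e-20) and KO (-3.15 ± 0.061, adjusted p = 3.40e-28 by edgeR). The mitotic kinase gene Aurkb also fell in WT (-1.65 ± 0.21, adjusted p = 3.73e-08 by edgeR) and KO (-3.37 ± 0.15, adjusted p = 7.19e-19). Mcm10, a replication factor, fell in WT (-1.39 ± 0.19, adjusted p = 1.55e-07) and KO (-2.75 ± 0.16, adjusted p = 1.30e-15). So did Cenpf of the kinetochore in WT (-1.82 ± 0.11, adjusted p = 2.36e-15) and KO (-3.04 ± 0.077, adjusted p = 4.15e-25 by edgeR). Birc5 (survivin) fell in WT (-1.56 ± 0.18, adjusted p = 3.65e-09 by edgeR) and KO (-3.16 ± 0.15, adjusted p = 1.77e-18). In SD, KO exceeded WT in Uhrf1 (1.65 ± 0.085, adjusted p = 1.19e-16 by edgeR) and Ccnb1, the mitotic cyclin (2.18 ± 0.15, adjusted p = 5.99e-14 by edgeR). Ccnb1, like Mcm10 and Cenpf above, passed the filter only through KO-SD, the group where it is highest. The place of these genes in the test, and their being named, thus depend on that group. In TGF-β, KO exceeded WT in Ccnb1 (1.19 ± 0.29, adjusted p = 8.00e-04) and Ube2c (1.13 ± 0.20, adjusted p = 1.60e-05).

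The p53 targets other than Cdkn1a moved in both directions. Of 21 tested, 6 rose and 11 fell with TGF-β in WT, and 5 rose and 12 fell in KO. KO exceeded WT in 6 and was below it in 12 in SD, and in 4 and 12 under TGF-β. The shares of all genes called higher and lower were 36.0% and 36.4%, 34.9% and 39.1%, 30.9% and 25.2%, and 27.3% and 27.8% in the same order. The medians of these 4 comparisons were -0.085, -0.15, -0.10 and -0.17. The interaction was positive for 3 and negative for 9 (median -0.12), against 8.67% and 16.6% of all genes tested. Pmaip1 (NOXA) rose with TGF-β in WT (1.57 ± 0.030, adjusted p = 4.38e-28) and KO (1.70 ± 0.030, adjusted p = 2.85e-29). Gadd45a also rose in WT (1.13 ± 0.036, adjusted p = 1.74e-22 by edgeR) and KO (1.40 ± 0.037, adjusted p = 1.35e-24). Sesn1 fell with TGF-β in WT (-1.28 ± 0.043, adjusted p = 4.63e-22) and KO (-1.38 ± 0.048, adjusted p = 1.09e-21 by edgeR). KO was below WT in the death receptor gene Fas in SD (-0.40 ± 0.035, adjusted p = 3.11e-11) and TGF-β (-1.15 ± 0.039, adjusted p = 3.00e-21). Btg2 was also lower in KO in SD (-0.25 ± 0.027, adjusted p = 4.59e-09 by edgeR) and TGF-β (-0.73 ± 0.029, adjusted p = 1.62e-19). Plk2 was higher in KO in SD (0.42 ± 0.025, adjusted p = 2.00e-15) and TGF-β (0.43 ± 0.023, adjusted p = 3.11e-16 by edgeR).

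**Figure D4:**
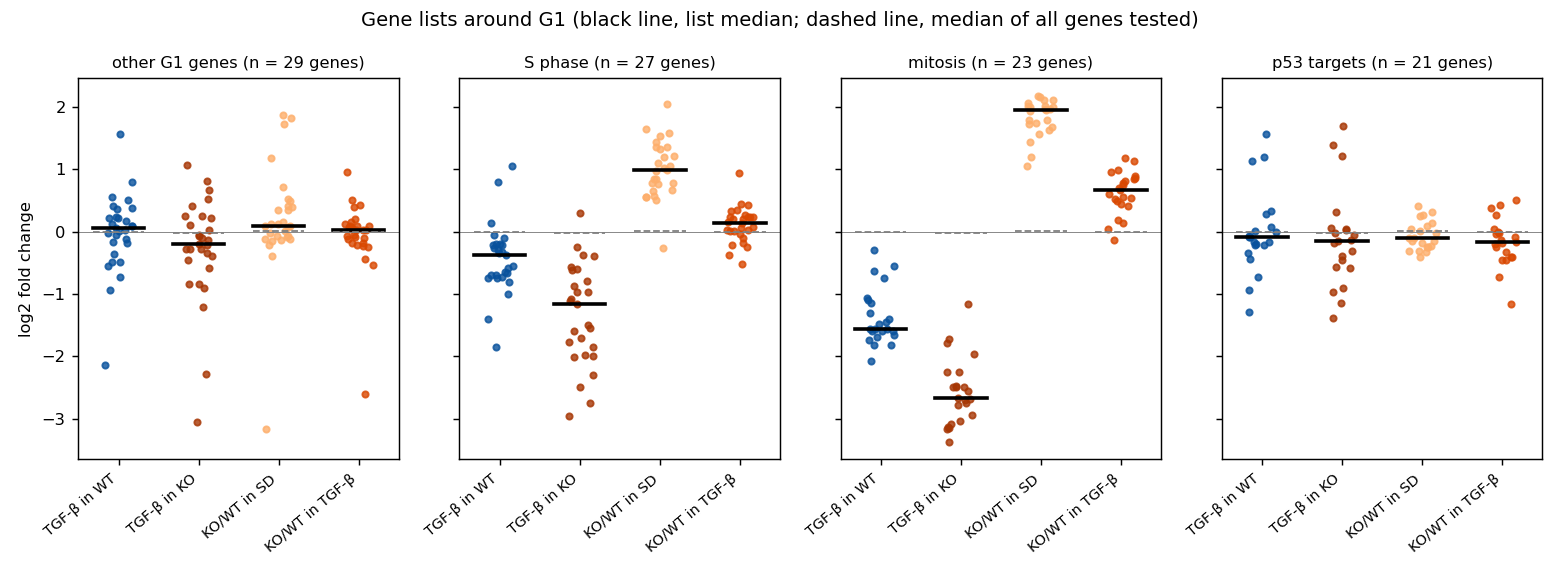
Log2 fold changes (y axis) of single genes (points) in the lists of other G1 genes, S phase, mitosis and p53 targets, by comparison (x axis), with the median of each list (black line) and of all 11530 genes tested (dashed line). The mitosis genes lie below 0 for TGF-β in both genotypes and above 0 for KO against WT in SD, but 4 of them, 5 S-phase genes and 2 of the other G1 genes passed the filter only through KO-SD.

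The genes with the most similar pattern over the 4 groups were found for the 3 members with the widest range of group means (Ccne1, 1.63 log2 units; Ccnd1, 1.61; Ccne2, 1.55). Likeness was the root mean square difference of the 4 centred group means on the log2 scale. Nearest to Ccne1 were Mtfr2 (0.026), Gins1 (0.036) and Spp1 (0.063). Gins1 passed the RPKM filter only through KO-SD, so its place among the genes compared depends on that group. Mtfr2 (0.657 CPM in WT-TGF and 0.710 in KO-TGF) and Gins1 (0.630 and 0.638) were low. The log2 means carry a prior count of 2, which draws such low levels together. Spp1 (osteopontin) had 404.2 CPM in WT-SD, 291.7 in WT-TGF, 934.7 in KO-SD and 280.1 in KO-TGF, a far more abundant RNA with the same profile. Nearest to Ccnd1 were Ston2 (0.044), Fndc4 (0.045) and Gnai1 (0.045). Nearest to Ccne2 were Cdt1 (0.069), BC028528 (0.089) and Incenp (0.091). With 4 points, such likeness is a description of the group means.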

How the data were processed

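RNA was sequenced from mouse mesangial cells in 12 libraries, 3 in each of 4 groups. The authors made mRNA libraries, mapped the single-end reads with TopHat on mm10, and ran HTSeq-count over RefSeq genes with strand-specific settings and without poor alignments. The deposited values are these raw counts, without normalization. Reads outside annotated exons (10.3% to 15.4%), with several alignments (11.2% to 11.7%) or on overlapping genes (0.225% to 0.274%) were in no library size or test. Of the genes studied, 6 share exonic bases with a gene on the opposite strand, which stranded counting keeps apart.

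As in the methods of the study, genes with RPKM >1 in at least 1 library were kept (11530) and normalized by TMM. They were tested with the quasi-likelihood test of edgeR 4.0.16 (R 4.3.3) in 1 fit of all 12 libraries with a mean per group (biological coefficient of variation 0.0268) and Benjamini-Hochberg adjustment over all genes tested. Gene lengths came from GENCODE vM21 (all exonic bases of a gene), with 24407 genes found by their symbol, 310 by a former symbol and 513 left without a length. CPM and RPKM were computed here from the counts. The SDs and standard errors include the spread between libraries, and the floor of 3 counts covers counting error only. Scripts were tested on simulated data. Replicate libraries differed beyond counting noise (chi-square per degree of freedom 1.33 to 5.20).

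The genes, lists and tests were chosen with earlier results of these data known. The text names all 10 members, and by |log2 fold change| among genes at FDR <5% the top 3 of the other G1 genes and the top 2 of the S-phase, mitosis and p53 lists in each comparison of 2 groups, with the 3 genes most like each of the 3 most variable members; a gene that this rule gives is not reported here. Alternatives were library size alone, DESeq2 1.42.0, the likelihood ratio test, other filters, only the groups compared, a replicate block and leaving out each library.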

Additional observations from a re-analysis of the deposited data

Results flagged for a closer look

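The response to TGF-β differed between KO and WT in the interaction term for 7 genes. As log2 response in KO minus that in WT, the values were -0.80 for Ccnd1, 0.094 for Ccnd2, -0.22 for Ccnd3, -1.02 for Ccne1, -1.41 for Ccne2, 0.74 for Cdkn2b and -0.39 for Cdkn2c. All 3 libraries of each group enter each value. For Ccnd1, Ccnd3, Ccne1 and Cdkn2c the decrease was larger in KO, for Cdkn2b the increase was larger in KO, for Ccnd2 the decrease was smaller in KO, and for Ccne2 the decrease was called in KO only, with the difference itself called.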

How the results depend on the processing

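With library size alone, the number of G1 genes called went to 1 higher for TGF-β in WT, 1 higher for TGF-β in KO, 1 higher and 5 lower for KO against WT in TGF-β, and 1 with a positive interaction, and the values that changed sign were Ccnd2 (-0.030) and Cdkn1b (-0.060) for KO against WT in SD, Ccne1 (-0.050) in TGF-β, and Cdkn1a for TGF-β in KO (-0.024) and for the interaction (-0.042). The medians of all genes moved with it, as given above. The likelihood ratio test and the fit without a filter each left 1 positive interaction. The interaction of Cdkn1a was also negative without a filter (-0.012) and with CPM >1 in at least 3 libraries (-0.0017), and Cdkn1b in SD was -0.0037 with only the groups compared. Leaving out a library each time, values near 0 crossed it: from -0.0081 to 0.047 for the interaction of Cdkn1a, from -0.037 to 0.063 for Cdkn1b in SD, from -0.081 to 0.014 for it in TGF-β, from -0.10 to 0.019 for its interaction, and from -0.35 to 0.11 for Cdkn1c in TGF-β. The cause was not tested for any of these. No count of called G1 genes moved beyond 1.5 times on leaving out 1 library.

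Libraries with the same number deviated together little (correlations of -0.014 to 0.065), and the number was not used in the main test. Whether they share a batch is not stated in the labels, and these values cannot decide it. With a replicate block, calls over all genes went from 8350 to 8450 for TGF-β in WT, from 8540 to 8613 in KO, from 6474 to 6645 for KO against WT in SD, from 6343 to 6504 in TGF-β and from 2916 to 3168 for the interaction. Of the G1 genes, the block changed the call of Ccnd2 for KO against WT in SD only (0.045; adjusted p = 0.0439). Depth limits Cdkn1c, with 4 to 28 counts a library, and the E-type cyclins, with 54 to 285.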
